A study of Mus musculus with 32 samples.

Results

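The cytosolic ribosomal protein (RP) genes examined here were 91 of the 21938 protein-coding genes of GENCODE M21 on mouse genome build mm10. They were chosen by symbol: Rpl or Rps followed by a digit, or the P-stalk names Rplp0, Rplp1 and Rplp2, with the Rps6k kinases left out. Of the 91 genes, 76 encode canonical proteins of the cytosolic ribosome and 15 are paralogs, pseudogene-derived genes or genes with a similar symbol. Peaks of Ikaros, CHD4 and H3K27ac within 1 kb of any annotated transcription start site (TSS) were recorded per gene and library. An H3K27ac peak was present in both 0 h libraries at 81 of the 91 genes, and these were compared with the 9656 other protein-coding genes that met the same condition.

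All samples came from B3, a line of mouse pre-B cells, that carried a retrovirally transduced, HA-tagged Ikaros-ERt2 fusion, including the cells collected at 0 h. Chromatin immunoprecipitation and sequencing (ChIP-seq) was performed on untreated cells (0 h) and on cells given 500 nM 4-hydroxytamoxifen (4-OHT), which releases the fusion into the nucleus, for 30 min, 1 h or 2 h. HA-Ikaros, CHD4 (the remodelling ATPase of the NuRD corepressor complex) and acetylated lysine 27 of histone H3 (H3K27ac, found at active regulatory DNA) each had 2 libraries per time, which gives 24 peak lists. The added Ikaros is driven by a viral vector, no library without 4-OHT at the later times was analysed, and time and 4-OHT exposure cannot be told apart.

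The ribosome is built from a large and a small subunit, each an RNA scaffold decorated with proteins that are needed in nearly equal amounts. Their genes are short, are expressed in every cell, and are among the most heavily transcribed genes of a growing cell. Many RP mRNAs start with a run of pyrimidines, the TOP motif, through which growth signals control their translation. In B lymphoid progenitors, ribosome production rises with proliferation, and Ikaros is known as a factor that limits the growth of these cells.

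The lists held 5373 to 14874 peaks for Ikaros, 2488 to 9593 for CHD4 and 21468 to 33664 for H3K27ac. The 30 min replicate 2 library of Ikaros had the fewest Ikaros peaks and the lowest recovered coverage, 1.98 fragments per base, against 2.12 to 3.59 in the other Ikaros libraries. The H3K27ac libraries had 3.75 to 4.34 fragments per base, and for CHD4 no depth could be recovered, so it is unknown. Among B-lineage marker genes, Cd79a, Cd79b, Pax5, Ebf1, Vpreb1 and Igll1 had H3K27ac in 8 of 8 libraries and Rag1 in 7, whereas of 8 markers of other cell types only Lyz2 had a call, in 1 library. The labels do not say whether the 2 replicates came from separate cultures, so p-values measure only the spread between these libraries, which may be technical.

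RP promoters were among the most strongly acetylated promoters of these cells. The 81 genes were chosen for an H3K27ac peak in both 0 h libraries, and all 81 also had one in each of the 6 later libraries. Among all 9737 acetylated promoters, 94.4% were called in all 8. Of those 9737, 96.2% had a peak in both 1 h libraries and 95.8% in both 2 h libraries, and 0.144%, 1.01% and 1.52% had lost it in both libraries at 30 min, 1 h and 2 h, against 0 RP genes at each time. The strength of a peak was compared as its fold rank, the percentile of the fold over background among the acetylated promoters called in the same library, since the folds of different libraries are not on one scale. Of the 1887 other promoters in the upper quintile of 0 h H3K27ac fold rank, 1886 and 1885 were called at 2 h. Keeping the peak was thus not particular to RP genes.

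The mean H3K27ac fold rank of RP promoters was 84.8 and 83.7 in the 0 h libraries, 80.9 and 82.6 at 30 min, 84.3 and 84.7 at 1 h, and 82.6 and 83.5 at 2 h. The other acetylated promoters averaged 49.7 in each library, and the RP value was higher in 8 of 8. The difference was 33.7 ± 1.31 percentile points (SD, n = 8 libraries; exact two-sided sign-permutation test, p = 0.00781, the smallest the design allows; adjusted p = 0.0130 over 5 level comparisons). Ranked among all peaks of a list, promoters or not, the difference was 19.5 points. H3K27ac peaks were also wider at RP genes: the median width was 3089 bp averaged over libraries, against 1947 bp at other acetylated promoters, a difference of 1142 ± 151 bp (8 of 8 libraries; exact sign-permutation p = 0.00781, adjusted p = 0.0104 over 4 comparisons added after the data were seen). Gene length differed too, with a median of 3289 bp for RP genes and 23365 bp for the others, and its part in the width was not tested.

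Acetylation did not move relative to the other promoters over the time course by more than the spread between libraries. The rank difference had a Spearman's rho with time of -0.20 (exact permutation p = 0.672, adjusted p = 0.896 over 8 trends) and a Pearson's r of -0.083 (p = 0.849, adjusted p = 0.885), with r = 0.084 once the 2 h libraries were left out. The share of other acetylated promoters still called fell from 100% at 0 h to 97.1% and 97.2% at 2 h. The 0 h calls define both groups, so the difference in this share starts at 0 by choice and its trend (rho 0.88) is given only as a description.

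Rpl23a and Rpl27a, both of the large subunit, had the highest mean 0 h H3K27ac ranks, 99.1 and 99.0. Rpl23a, which lies near the exit of the peptide tunnel, had H3K27ac folds of 46.1 and 36.3 at 0 h, 52.9 and 28.8 at 30 min, 47.2 and 33.2 at 1 h, and 23.9 and 32.7 at 2 h. Its rank stayed between 94.6 and 99.5 in all 8 libraries. Rpl35, Rps25 and Rpl11 followed with mean 0 h ranks of 98.7, 97.5 and 97.5. The summit behind the Rpl35 value lay at -2845 and -2821 bp from the principal TSS at 0 h, in peaks of 9993 and 9906 bp. In the 1 library with a summit nearer the TSS, replicate 2 at 1 h (814 bp), the fold was 20.2 and the rank 91.5.

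The 5 lowest of the 81 were Rps19bp1, Rpl7l1, Rps4x, Rpl39 and Rpl36a. Rps19bp1, whose product binds the RPS19 protein and is no part of the ribosome, had a mean 0 h rank of 32.3, and Rpl7l1, a nucleolar relative of RPL7, had 38.2. Rps4x, Rpl39 and Rpl36a encode canonical proteins and had 44.6, 58.5 and 60.8. These 3 genes lie on the X chromosome, which holds 4 of the 81 genes. The other, Rpl10, had a mean rank of 88.7. The X location was noticed after the values were seen and was not tested.

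**Figure D1:**
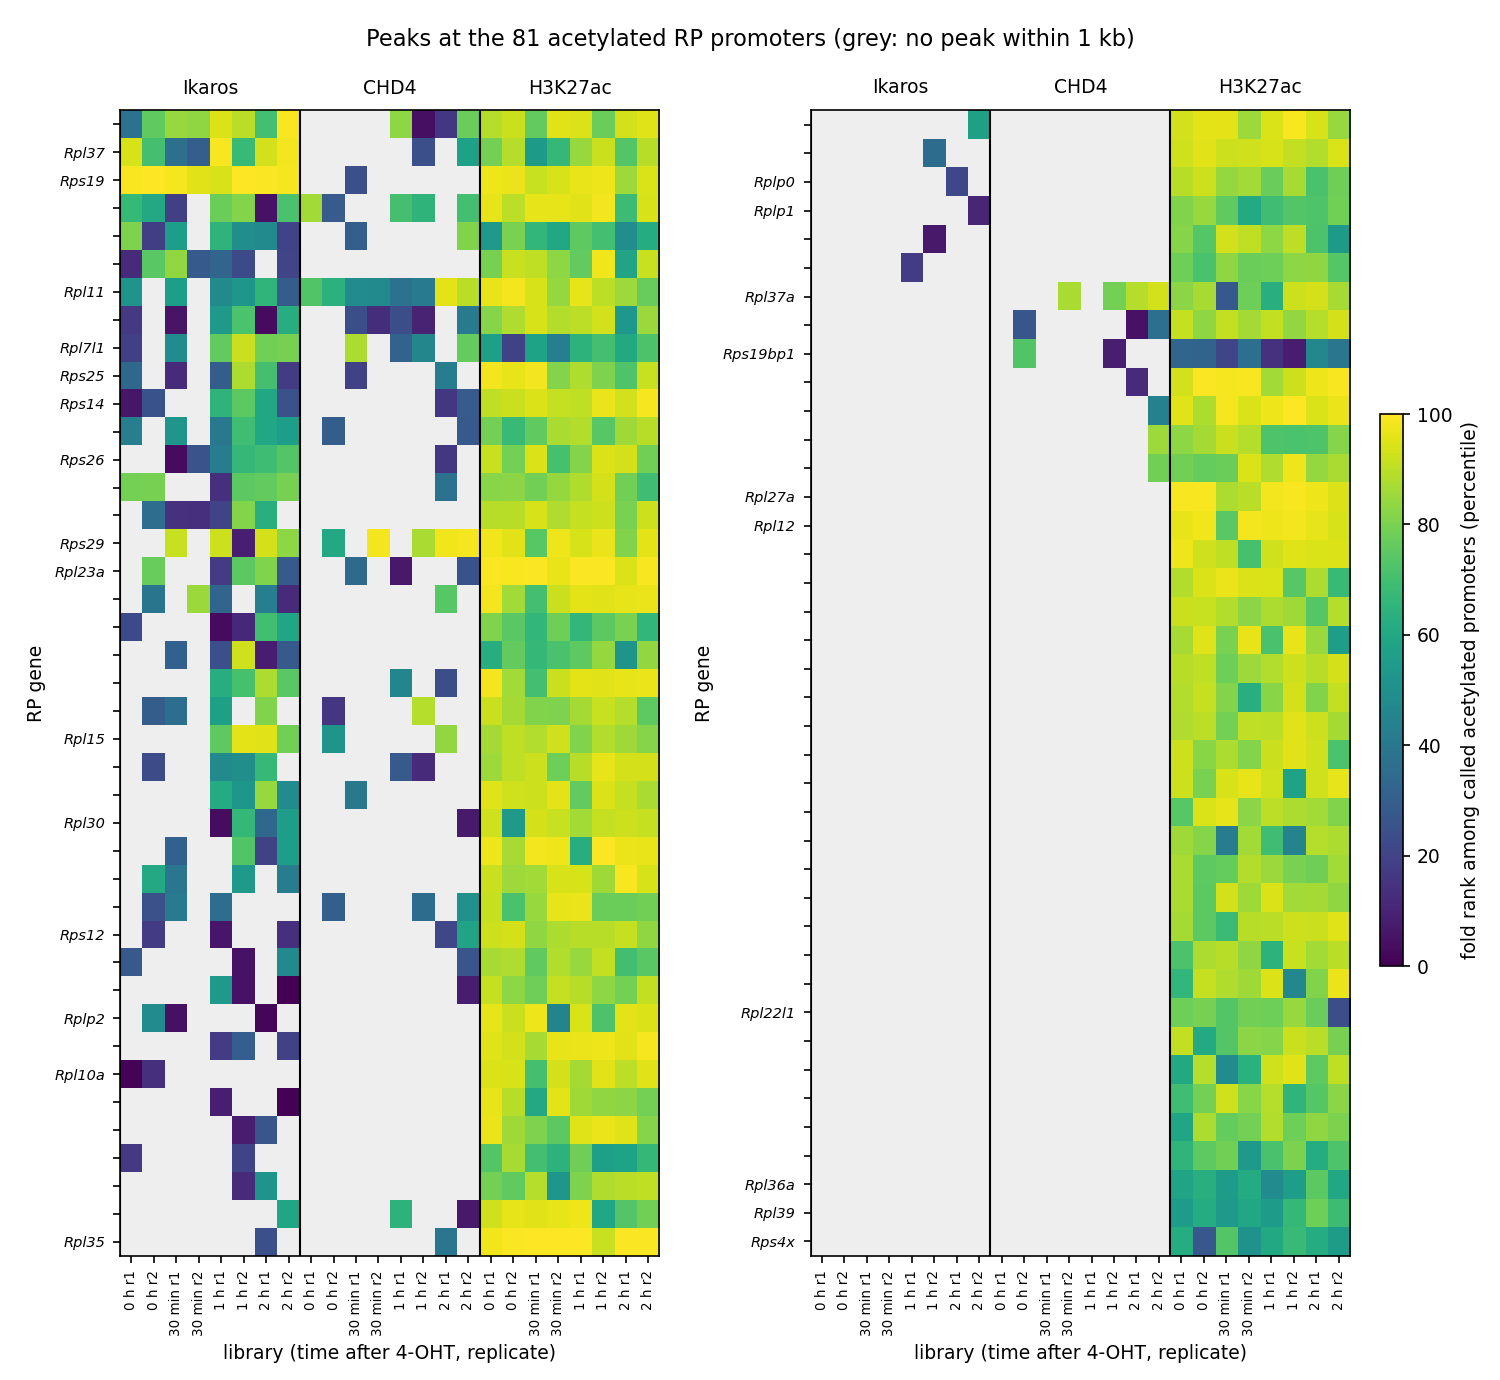
Each row is 1 of the 81 RP genes with H3K27ac in both 0 h libraries (some rows carry the gene's name) and each column is 1 library, ordered by target, time after 4-OHT (h or min) and replicate (r1, r2). Colour is the fold rank of the gene's strongest peak, in percentiles among the called acetylated promoters of that library, and grey is no peak within 1 kb of a TSS. H3K27ac is filled in every column and mostly high. Ikaros is called at 47 genes in at least 1 library (58.0%, against 81% of all acetylated promoters). Neither an Ikaros nor a CHD4 call is present at 27 genes (33.3%, against 15.5%).

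Ikaros was called at fewer RP promoters than at other acetylated promoters in every library. It was called at 17 and 18 of the 81 RP genes at 0 h, 20 and 7 at 30 min, 32 and 34 at 1 h, and 31 and 33 at 2 h. As shares these were 21% and 22.2%, 24.7% and 8.64%, 39.5% and 42.0%, and 38.3% and 40.7%. The other acetylated promoters had 33.6% and 36.8% at 0 h, 41.2% and 18.7% at 30 min, 56.6% and 61.1% at 1 h, and 58.7% and 61.1% at 2 h.

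The RP share was lower by 16.3 ± 3.71 percentage points (SD, n = 8), in 8 of 8 libraries (exact sign-permutation p = 0.00781, adjusted p = 0.0130). Without the sparse 30 min replicate 2 library the difference was -17.2 points, and with every Ikaros list cut to its 5373 strongest peaks it was -8.66 points. The sign depended on which genes stood on the other side: with all 91 members set against all other protein-coding genes, acetylated or not, RP genes had the higher share, by 5.31 points (exact sign-permutation p = 0.0156, adjusted p = 0.0391).

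The gap was larger when promoters of like acetylation were set side by side. Of the 81 RP genes, 60 fell in the upper quintile of 0 h H3K27ac fold rank and 17 in the next quintile. At 2 h, Ikaros was called at 40.0% and 45.0% of these 60 RP genes and at 80.0% and 79.2% of the 1887 other genes of the upper quintile. Within this quintile the difference averaged -31.2 points over the 8 libraries, a restriction added after the data were seen. In the next quintile, the 2 h mean was 32.4% for 17 RP genes and 68.7% for the others.

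**Figure D2:**
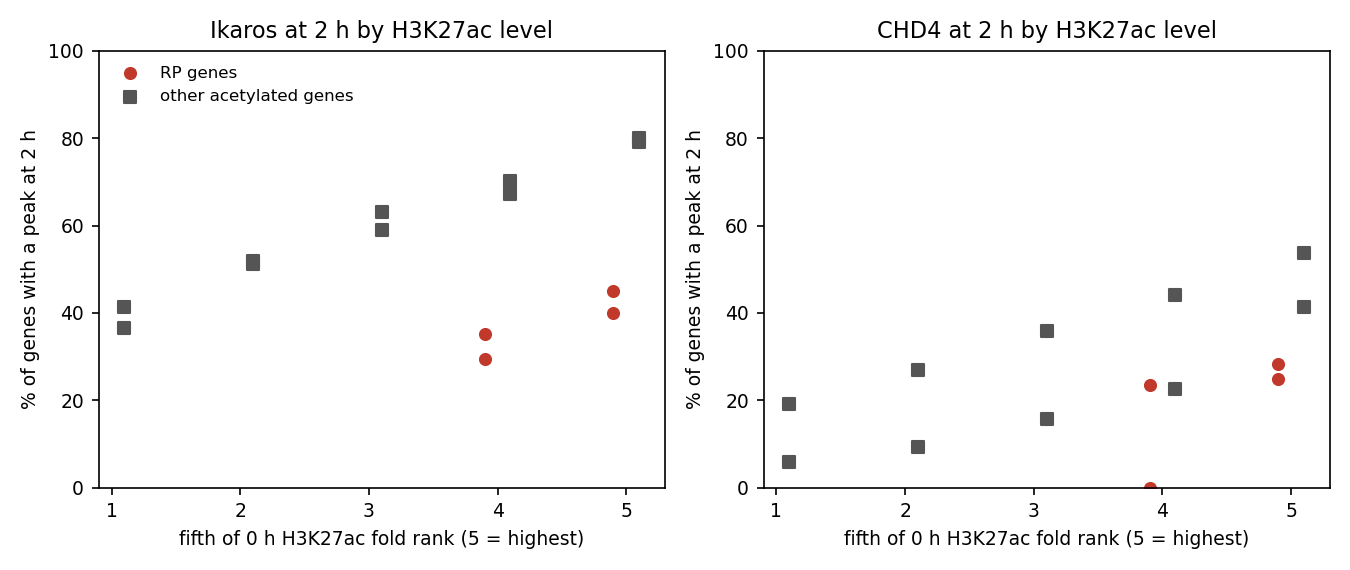
The horizontal axis divides acetylated promoters into quintiles of 0 h H3K27ac fold rank and the vertical axis gives the percentage of genes with an Ikaros (left) or CHD4 (right) peak at 2 h; each point is 1 of the 2 libraries, and RP points are drawn only for the upper 2 quintiles, which hold 17 and 60 genes. The Ikaros share of other genes climbs from a mean of 39.0% to 79.6%, and the RP points lie below it, at means of 32.4% and 42.5%.

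**Figure D3:**
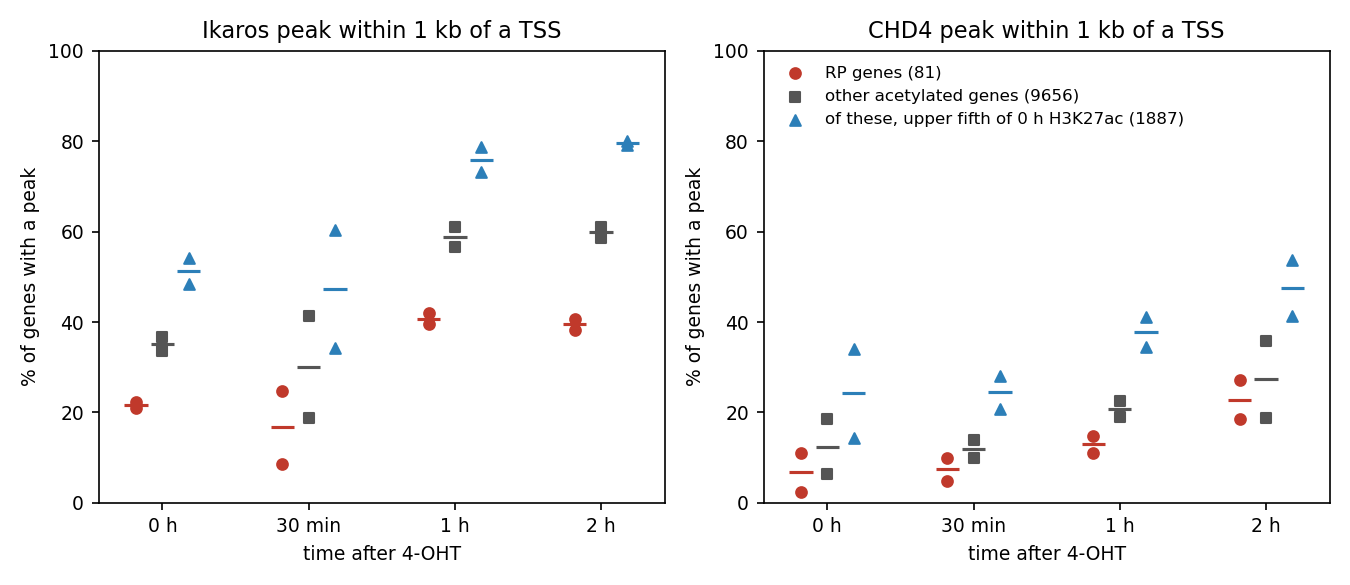
Points are libraries and short lines are means of 2; the horizontal axis is time after 4-OHT and the vertical axis the percentage of genes with an Ikaros (left) or CHD4 (right) peak. RP genes lie below the other acetylated genes of the same library in all 8 Ikaros and all 8 CHD4 libraries, and the upper quintile of other genes lies above both.

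Over all called promoters the strength of the Ikaros peak gave no difference that passed the test. The mean Ikaros fold rank of called RP promoters minus that of other called promoters was -1.35 ± 5.43 (SD, n = 8; lower in 5 of 8 libraries; exact sign-permutation p = 0.5, adjusted p = 0.625). In the upper quintile of H3K27ac it was -6.15 (exact sign-permutation test, adjusted p = 0.0195), which passed the threshold.

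The share of RP promoters with Ikaros was 21.6% ± 0.873 at 0 h and 39.5% ± 1.75 at 2 h (SD, n = 2), against 35.2% ± 2.26 and 59.9% ± 1.68 for the others. Its trend with time did not pass (rho 0.73, exact permutation p = 0.0548, adjusted p = 0.110, with Pearson's r = 0.72, p = 0.0512, adjusted p = 0.102, and r = 0.69 without the 2 h libraries). The gap to other promoters, in percentage points, had a trend with time that passed when adjusted over all 8 trends (rho -0.88, exact permutation p = 0.0103, adjusted p = 0.0413, with Pearson's r = -0.81, p = 0.0175, adjusted p = 0.0466, and r = -0.61 without the 2 h libraries). Adjusted over 7 trends, without the H3K27ac share trend that the choice of genes fixes, it did not pass (exact permutation, adjusted p = 0.0556 for rho and 0.0611 for r). Read as a log2 odds ratio it did not either (rho -0.54, adjusted p = 0.305), and with lists cut to the 5373 strongest Ikaros peaks rho was 0.049.

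Ikaros was called in both 2 h libraries at 23 of 81 RP genes (28.4%), where 48.1% of all acetylated promoters were. It was gained, called in both 2 h libraries and in neither 0 h library, at 8 RP genes (9.88%; 13.9% of all acetylated promoters) and lost at 1 (1.23%; 0.75%). At 30 min only 1 RP gene had gained it (1.47% of all acetylated promoters) and 3 had lost it (3.77%), with the sparse replicate 2 library in both counts. It was called in no library at 34 RP genes (42.0%; 19% of all acetylated promoters) and in all 8 libraries at 3 (3.70%; 11.7%). The remaining RP genes were called in 1 to 7 libraries, 8 of them in 1 library alone.

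Rps19 and Rpl37 were among the 3 genes with Ikaros in all 8 libraries, before as well as after 4-OHT. Rps19, a small-subunit protein needed to mature the small-subunit RNA and the gene most often mutated in Diamond-Blackfan anaemia, had Ikaros folds of 15.8 and 28 at 0 h, 11.3 and 8.09 at 30 min, 9.59 and 21.8 at 1 h, and 11.0 and 11.7 at 2 h. Its fold rank was never below 94.1, so it was near the top of every list whatever the time. Rpl37, a zinc-binding protein of the large subunit, had 9.91 and 6.58, 4.51 and 4.31, 13.1 and 5.78, and 7.27 and 10.9.

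Of the 2 h folds of Rpl37, 1 lay between its 0 h folds and 1 above them, and those of Rps19 lay below both of its 0 h folds. Folds are scaled within a library and their difference between times was not tested.

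The summits of these peaks fell close together across libraries. At Rps19 the 8 summits lay within 119 bp of each other with a median 103 bp upstream of the principal TSS and at Rpl37 within 80 bp and 337 bp upstream. The 121 bases centred on the median summit of both genes are printed because they had the highest mean Ikaros fold ranks at 2 h of all RP genes, 99.1 and 95.6. They were read from the reference genome GRCm38.p6 (mm10), on the strand of the gene, and overlap no annotated protein-coding gene. Capitals mark GGGAA or its reverse complement TTCCC, the core of the motif that Ikaros zinc fingers recognise.
Rps19, chr7:24884208-24884328, + strand: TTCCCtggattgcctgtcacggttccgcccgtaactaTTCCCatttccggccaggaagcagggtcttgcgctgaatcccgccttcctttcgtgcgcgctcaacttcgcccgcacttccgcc
Rpl37, chr15:5116248-5116368, + strand: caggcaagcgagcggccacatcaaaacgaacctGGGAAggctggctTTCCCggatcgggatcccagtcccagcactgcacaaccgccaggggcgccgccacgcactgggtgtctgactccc

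Rps19 and Rpl37 each held 2 copies of GGGAA in this window. Over all called RP promoters, GGGAA on either strand lay within 60 bases of the 2 h summit at 15 of 31 genes in replicate 1 (48.4%) and 13 of 33 in replicate 2 (39.4%). The shares at the other called acetylated promoters were 45.6% and 48.8%, so the RP genes were slightly above them in one library and below in the other.

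Ikaros summits sat upstream of the start at RP genes and around it elsewhere. The median distance from the principal TSS ranged from -272 to -154 bp over the 8 libraries at RP genes and from -42.5 to 45.0 bp at other acetylated promoters. The difference was -204 ± 52.5 bp, in the same direction in 8 of 8 libraries (exact sign-permutation p = 0.00781, adjusted p = 0.0104 over the 4 added comparisons). At 2 h the RP medians were -181 bp over 31 genes and -190 bp over 33 genes. The H3K27ac summits lay downstream in both groups, at medians of 253 to 321 bp for RP genes and 146.5 to 182 bp for the others.

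**Figure D4:**
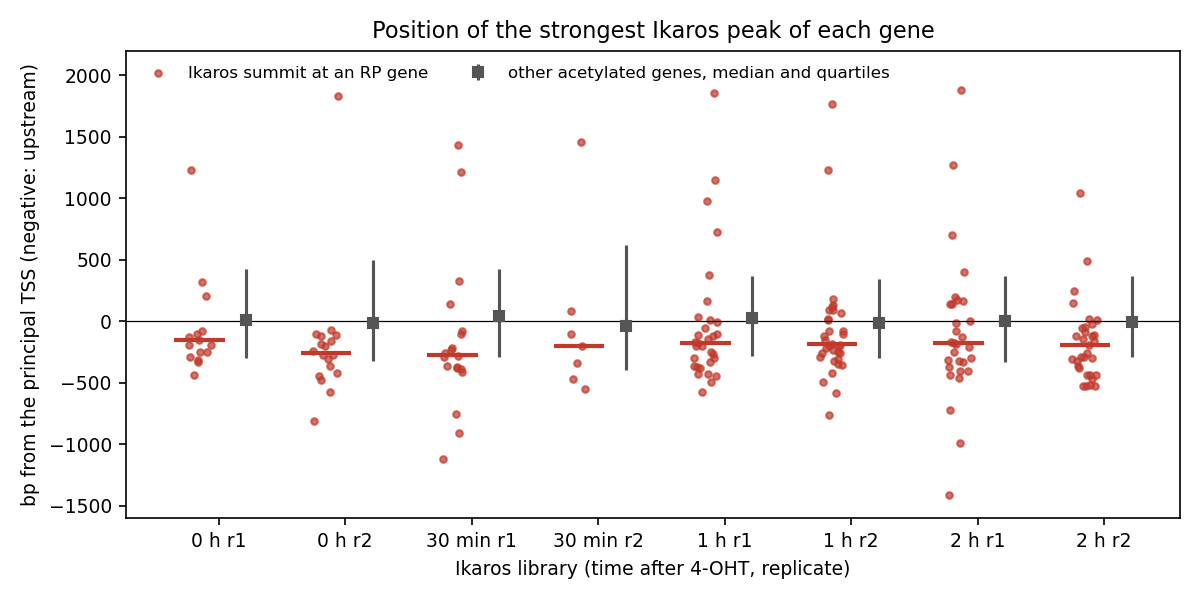
The vertical axis is the distance of the summit of each gene's strongest Ikaros peak from the principal TSS in bp (negative is upstream) and the horizontal axis is the Ikaros library, by time after 4-OHT and replicate; red points are RP genes with their median as a line, and grey squares with bars are the median and quartiles of other acetylated genes. Of 192 RP points, 7 lie beyond the axis, and the RP medians lie between -272 and -154 bp in every library.

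The 8 RP genes that gained Ikaros by 2 h included Rps29, Rpl15, Rps26, Rpl30, Rps18 and Rps28. Rps29, the small-subunit zinc protein, had no call at 0 h, a fold of 7.91 in 1 of the 30 min libraries, 8.82 and 3.35 at 1 h, and 7.33 and 6.92 at 2 h. Rpl15 was not called at 0 h or 30 min and had 6.56 and 9.90 at 1 h and 7.79 and 6.57 at 2 h. Both were thus called in all 4 of the libraries from 1 h on and in neither library at 0 h.

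Rps26, a protein at the mRNA exit of the small subunit, was already called at 30 min with 3.09 and 4.13, and had 5.29 and 6.10 at 2 h. Rpl30, Rps18 and Rps28 had 2 h folds between 3.33 and 5.36. The gene that lost Ikaros, Rpl10a, had only weak 0 h peaks, with folds of 2.69 and 3.89 and fold ranks of 1.04 and 14.0.

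The RP genes without any Ikaros call included several of the most acetylated. Rpl27a and Rpl12, which were called for neither Ikaros nor CHD4 in any of the 16 libraries, had mean 0 h H3K27ac ranks of 99.0 and 97.2. Rpl27a had H3K27ac folds of 43.9 and 37.0 at 0 h and 27.9 and 23.6 at 2 h. Rpl12, of the stalk base where elongation factors dock, had 36.6 and 33.0, then 26 and 22.9. Both were chosen after the values were seen, as the most acetylated genes without a call, and their upstream bases are printed to set uncalled promoters beside the called ones. They come from the RefSeq promoter table on GRCm38.p6, up to the base before the first annotated GENCODE start of the gene, with GGGAA or TTCCC in capitals.
Rpl27a, chr7:109518945-109519146, + strand: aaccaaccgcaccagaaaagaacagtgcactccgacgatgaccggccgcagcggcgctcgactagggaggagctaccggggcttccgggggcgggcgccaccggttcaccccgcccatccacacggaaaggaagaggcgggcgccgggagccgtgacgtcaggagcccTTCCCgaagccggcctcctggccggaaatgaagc
Rpl12, chr2:32961462-32961558, + strand: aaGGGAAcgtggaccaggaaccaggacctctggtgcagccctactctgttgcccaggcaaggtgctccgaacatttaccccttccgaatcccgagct

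Both uncalled promoters hold 1 copy of GGGAA. The RefSeq table held 61 of the 81 RP promoters. Among the 20 without an entry were Rps29, Rpl30 and Rpl23a. In the 250 bases before the RefSeq start, GGGAA on either strand was present at 40 of 61 RP promoters (65.6%), against 58.6% of the 7653 other acetylated promoters with an entry and 56.2% of all 32851 promoters of the table. It was present at 8 of the 15 RP promoters with Ikaros in both 2 h libraries and at 19 of the 29 with Ikaros in no library.

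CGGAAG, the core bound by ETS factors, was present on either strand at 31 of 61 RP promoters (50.8%), 29.9% of other acetylated promoters and 13.6% of all promoters. GGGCGG, the SP1-type GC box, was present at 49.2%, 61.2% and 32.7%. TATAAA, the TATA box, was present at 4.92%, 5.78% and 12.4%. No overlap with another of these words was removed, and a match is a description of the sequence only.

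The first 5 transcribed bases of the RefSeq start were all pyrimidines at 14 of 61 RP promoters (23.0%), at 3.97% of other acetylated promoters and at 4.44% of all promoters. The start used in these cells was not measured and can differ from the RefSeq start. At Rpl35 the principal TSS is chr2:39005624, outside the window printed below. The 23.0% is therefore not the share of RP genes with a TOP motif. The 30 bases around the start, 10 before it and 20 from it, are printed for the 4 most acetylated of these 14 to show these pyrimidines. Whether the run is a TOP motif was not tested. It begins with T at Rpl27a and with C at the other printed genes. Capitals mark the run of pyrimidines from the first base.
Rpl27a, chr7:109519185-109519214, + strand: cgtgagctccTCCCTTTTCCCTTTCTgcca
Rpl35, chr2:39005112-39005141, - strand: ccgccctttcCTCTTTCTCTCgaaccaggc
Rps6, chr4:86857348-86857377, - strand: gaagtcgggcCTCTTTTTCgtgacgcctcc
Rplp2, chr7:141447641-141447670, + strand: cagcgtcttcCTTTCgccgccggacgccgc

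CHD4 was also called at fewer RP promoters. It was called at 2 and 9 of 81 RP genes at 0 h, 8 and 4 at 30 min, 9 and 12 at 1 h, and 15 and 22 at 2 h. The shares were 2.47% and 11.1%, 9.88% and 4.94%, 11.1% and 14.8%, and 18.5% and 27.2%. Other acetylated promoters had 6.29% and 18.6%, 14.0% and 9.83%, 22.4% and 19.0%, and 18.8% and 35.9%.

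The RP share of CHD4 was lower by 5.60 ± 3.42 percentage points (SD, n = 8), in 8 of 8 libraries (exact sign-permutation p = 0.00781, adjusted p = 0.0130). With all 91 members set against all other protein-coding genes the sign turned, to 2.92 points (exact sign-permutation test, adjusted p = 0.104). At 2 h in replicate 1 the gap was only -0.299 points, and in the upper quintile of H3K27ac the mean gap was -19.1 points (exact sign-permutation test, adjusted p = 0.0195). Restricted to peaks with a −log10 q of at least 3 the mean difference was -0.827 points and did not pass (exact sign-permutation test, adjusted p = 0.188). The fold rank of called RP promoters minus that of the others gave no difference that passed (0.616 ± 13.9, n = 8; lower in 5 of 8 libraries; exact sign-permutation p = 0.922, adjusted p = 0.922), with 2 to 22 RP genes behind each library's value. The positive mean rested on 0 h replicate 1, where 2 RP genes gave a difference of 29.5, and without that library it was -3.51.

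The CHD4 share of RP promoters had a trend with time that passed when adjusted over all 8 trends (rho 0.83, exact permutation over pairings, p = 0.0159, adjusted p = 0.0423, with Pearson's r = 0.86, p = 0.00516, adjusted p = 0.0413, and r = 0.61 without the 2 h libraries). The CHD4 lists themselves grew, from 2488 and 6000 peaks at 0 h to 5523 and 9593 at 2 h. With lists of equal size the call was lost (rho 0.80, exact permutation, adjusted p = 0.110), as it was with promoters taken within 3 kb (adjusted p = 0.0931) or with the peak centre in the window (adjusted p = 0.119). Adjusted over the same 7 trends it was past the threshold for r (exact permutation, adjusted p = 0.0361) and not for rho (adjusted p = 0.0556). The call on rho held in 1 of the 8 fits that left out a library, the fit without the 0 h replicate 2 library (rho 0.97, adjusted p = 0.0254). In the other 7 adjusted p ran up to 0.117. The gap to other promoters had no trend that passed (rho -0.098, exact permutation p = 0.861, adjusted p = 0.946, with Pearson's r = 0.062, p = 0.885, adjusted p = 0.885, and r = -0.32 without the 2 h libraries).

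CHD4 was called in both 0 h libraries at 2 RP genes (4.66% of all acetylated promoters), in both at 30 min at 2 (5.65%), in both at 1 h at 6 (11%) and in both at 2 h at 7 (13%). By 30 min it was gained at 1 RP gene (1.07%) and lost at 1 (0.996%), and by 1 h gained at 4 (3.46%) and lost at 0 (0.596%). By 2 h it was gained at 4, among them Rpl37a, Rps12 and Rps14 (4.94%; 5.17%), and lost at 0 (0%; 0.514%). It was called in at least 1 library at 35 RP genes (43.2%, against 53.1% of all acetylated promoters) and in none at 46 (56.8%, against 46.9%). The RP share for gained CHD4 was thus close to that of acetylated promoters at large.

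Rpl37a, a large-subunit zinc protein, had CHD4 folds of 3.86 in 1 library at 30 min, 3.79 in 1 at 1 h, and 3.58 and 3.78 at 2 h, and it had no Ikaros call in any library. Rps29 had the highest mean CHD4 rank at 2 h, with folds of 3.94 and 4.19 there, 3.93 in 1 library at 1 h, 4.36 in 1 at 30 min and 3.43 in 1 at 0 h. CHD4 folds at RP genes covered a narrow range, from 2.85 to 4.36 over all 81 calls of a member in a library.

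Rps12 and Rps14 had CHD4 only in the 2 h libraries, with folds of 3.03 and 3.24 and of 3 and 3.02. Rps14 is the small-subunit gene whose loss underlies the anaemia of the 5q- syndrome. The CHD4 peaks of Rps14 were centred 319 and 498 bp from the principal TSS, whereas its strongest H3K27ac peak lay 27666 to 27805 bp downstream of that TSS in all 8 libraries, so the CHD4 calls are not at the most acetylated start of the gene. The folds of both genes lie in the lower part of the CHD4 range at RP genes.

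Rpl11, which with RPL5 and the 5S RNA holds MDM2 in check when ribosome assembly fails, was the only RP gene with CHD4 in all 8 libraries (1.23%; 1.66% of all acetylated promoters). Its CHD4 folds ran from 3.22 to 3.82 and it was called for Ikaros in 6 libraries, with folds from 4.32 to 5.19. All 14 of these peaks were centred 24929 to 25806 bp downstream of the principal TSS, at the start of a short processed transcript at its far end, and not at the start of the mRNA. With TSSs of protein-coding transcripts only, the differences over all members were -16.5 points for Ikaros and -6.08 points for CHD4.

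Ikaros and CHD4 were both called in both 2 h libraries at 4 RP genes (4.94%; 11.2% of all acetylated promoters). Among the 23 RP genes with Ikaros in both 2 h libraries, 4 had CHD4 (17.4%), and among the 40 with Ikaros in neither, 2 had CHD4 (5.00%). The same shares at other acetylated promoters were 23.3% of 4658 and 2.14% of 2754. Neither protein was called in any library at 27 RP genes (33.3%; 15.5%).

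Among all other acetylated promoters, Ikaros was called at 33.6% and 36.8% at 0 h and at 58.7% and 61.1% at 2 h, and CHD4 at 18.8% and 35.9% at 2 h. Of the 49 acetylated large-subunit symbols, Ikaros was called at 7 and 11 at 0 h and at 19 and 16 at 2 h. Of the 32 small-subunit symbols it was called at 10 and 7 at 0 h and at 12 and 17 at 2 h. The 2 h shares were 35.7% ± 4.33 and 45.3% ± 11.0 (SD, n = 2), and the 2 subunits' libraries overlapped. CHD4 at 2 h was called at 6 and 11 large-subunit and at 9 and 11 small-subunit genes, or 17.3% ± 7.22 and 31.2% ± 4.42, and here they did not overlap. Over the 8 libraries the small-subunit share minus the large-subunit share was 11.1 ± 8.79 points for Ikaros (higher in 6 of 8; exact sign-permutation p = 0.0312, adjusted p = 0.0625) and 4.52 ± 6.94 points for CHD4 (6 of 8; p = 0.117, adjusted p = 0.117). Neither passed once adjusted over the 2 comparisons, which were added after the data were seen.

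The P-stalk genes Rplp0, Rplp1 and Rplp2, whose products form the flexible arm that recruits elongation factors, had mean 0 h H3K27ac ranks of 90.8, 82.8 and 94.2. Ikaros was called at Rplp0 in 1 library and at Rplp1 in 1, both at 2 h, and at Rplp2 in 3 libraries across the times. None of the 3 had a CHD4 call.

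Of the 15 members outside the canonical set, 10 had no H3K27ac in both 0 h libraries: Rpl10-ps3, Rpl10l, Rpl36-ps4, Rpl36a-ps1, Rpl39l, Rpl3l, Rpl9-ps1, Rpl9-ps6, Rps12-ps3 and Rps27rt. They include Rpl3l, a paralog of striated muscle, and Rpl10l and Rpl39l, known from testis. These 10 genes had 0 calls of any target in the 24 libraries. Copies nearly identical to a parent gene share reads with it, and the authors' methods name no filter on reads that map to several places, so an absent peak at such a copy is uncertain.

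The 5 acetylated genes outside the canonical set were Rpl22l1, Rpl36al, Rpl7l1, Rps19bp1 and Rps27l. Rpl7l1 was called for Ikaros in 6 libraries, with folds of 5.74 and 6.69 at 2 h, and for CHD4 in 4. Rps27l, a paralog of Rps27 and a known p53 target, was called for Ikaros in 2, and Rpl22l1, Rpl36al and Rps19bp1 in none. Rpl22l1, the paralog that RPL22 holds down, had H3K27ac ranks of 78.0 and 79.3 at 0 h and 77.1 and 24.2 at 2 h, so the fall in its mean, the largest of the 81 genes, rested on 1 library. Rpl7l1 had 57 and 19.4 at 0 h and 60.7 and 72.0 at 2 h, and its mean, with the largest increase, rested in most part on the low 0 h replicate 2 value. Over the 81 genes the mean rank was higher at 2 h for 38 of them.

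Rpsa and Fau, canonical genes that the symbols leave out, were acetylated in all 8 libraries, with mean 0 h ranks of 99.1 and 77.3. Ikaros was called at Rpsa in 1 library, replicate 2 at 1 h, and at Fau in none. The mitochondrial RP genes, which encode the separate ribosome of that organelle, had H3K27ac at 78 of 78 genes with a mean rank of 47.9 over the libraries, 35.5 ± 1.14 points under the cytosolic genes (8 of 8 libraries; exact sign-permutation p = 0.00781, adjusted p = 0.0104). Ikaros was called at 35 and 36 of these 78 genes at 2 h (44.9% and 46.2%), and over the 8 libraries the cytosolic share minus the mitochondrial share was -1.78 ± 3.71 points (cytosolic lower in 4 of 8; exact sign-permutation p = 0.203, adjusted p = 0.203).

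Other genes of the same pathway had the following Ikaros calls at 2 h. Of 30 ribosome biogenesis factors, all acetylated, 14 and 16 were called (46.7% and 53.3%). Of 19 translation factors and other TOP genes, all acetylated, 9 and 14 were called (47.4% and 73.7%), and of 14 RNA polymerase I genes, all acetylated, 4 and 6 (28.6% and 42.9%). Mean H3K27ac ranks of the TOP genes were 76.2 and 77.4 at 0 h and 74.9 and 78.1 at 2 h. High acetylation was thus not particular to RP genes. At 0 h the biogenesis genes had 55.9 and 56.9 and the polymerase I genes 38.6 and 42.1. Ikaros was gained by 2 h at 9 mitochondrial RP genes (11.5%), 3 biogenesis genes (10%), 3 TOP genes (15.8%) and 0 polymerase I genes, where 13.9% of all acetylated promoters gained it. It was lost at 1 (1.28%), 0, 1 (5.26%) and 1 (7.14%), where 0.75% of all did.

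A TSS of another protein-coding gene lay within 1 kb at 19 RP genes (23.5%) and at 26.6% of the others, and Ikaros was called in both 2 h libraries at 31.6% of RP genes with such a neighbour and 27.4% of those without, against 50.0% and 47.6% of the others. RP genes had a median of 6 annotated TSSs and the others 5.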

How the data were processed

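Per the labels and methods, the authors aligned paired reads to mm10 with Bowtie2 2.4.2, marked duplicates with Picard 2.23.7 and called peaks with MACS2 2.2.7.1 per library, broad for CHD4 and narrow otherwise; settings for 30 min, the input pairing and whether a blacklist was applied to these peak lists are not given in the sources used here. The lists deposited by the authors give a score (not used), a fold enrichment (a ratio), −log10 p and −log10 q. They hold no read counts, so no count model was run; coverage was recovered from fold and p of the narrow lists (tolerance 0.003 in log10 p, peaks with −log10 p under 12). CHD4 depth is unknown, and greater depth lets weaker peaks pass.

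A gene was called when a peak overlapped the 1 kb around any GENCODE M21 TSS. Each library gave 1 value. Level differences used exact two-sided sign-permutation tests (256 patterns), trends exact permutation tests (40320 pairings), Benjamini-Hochberg adjusted over 5 and 8 results at 0.05. Genes were named by highest or lowest mean fold rank, by gain or loss, or as non-canonical. Groups came from the library titles. Members and lists were chosen with earlier results of these data known. Scripts were tested on simulated data; Python 3.11.15, numpy 2.4.6, pandas 2.3.3 and scipy 1.17.1 were used. Alternatives were stricter peaks, other windows, gene sets and ranks, equal lists and each library left out. The 8 inputs have no list and were not analysed here. Some genes and sequences are not reported here.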

Additional observations from a re-analysis of the deposited data

Results flagged for a closer look

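The difference in the Ikaros share between RP and other acetylated promoters had a trend with time (rho -0.88, exact permutation test, adjusted p = 0.0413 over 8 trends, n = 8), a test of whether both gene groups moved differently. Without the H3K27ac share trend, which the choice of genes fixes, the adjusted p over 7 trends was 0.0556 and the call was lost. In percentage points the gap was -12.6 and -14.6 at 0 h, -16.6 and -10.1 at 30 min, -17.0 and -19.1 at 1 h, and -20.4 and -20.3 at 2 h. As a log2 odds ratio the same relation had rho -0.54 and an adjusted p of 0.305, and over the other alternatives rho ran from -0.90 to 0.63. The Ikaros lists themselves grew, from 7822 and 9527 peaks at 0 h to 14225 and 14179 at 2 h, and the part of list size in the gap was not tested beyond the lists of equal size, where rho was 0.049.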

How the results depend on the processing

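Over alternatives other than leaving out a library, 123 values kept direction and side of the threshold, 24 lost the call, 3 gained it and 19 changed sign; the causes were not tested unless the fewer peaks, genes or libraries give them. Adjusted over 7 trends, without the H3K27ac share trend, the Ikaros share difference (rho -0.88) and the CHD4 share in RP genes (rho 0.83) both had an adjusted p of 0.0556. Set against all protein-coding genes, the share difference was 5.31 points for Ikaros and 2.92 for CHD4, and the rho with time was 0.63 for the Ikaros, 0.73 for the CHD4 and 0.63 for the H3K27ac share difference and 0.83 for the CHD4 share in RP genes (adjusted p = 0.127). With −log10 q of at least 3 the CHD4 share difference was -0.827, and rho was -0.78 for the Ikaros and 0.54 for the CHD4 share difference and 0.88 for the Ikaros rank difference; CHD4 ranks gave no value there. With lists of equal size rho was 0.049 for the Ikaros and 0.39 for the CHD4 share difference and 0.80 for the CHD4 share in RP genes. As log2 odds ratios the share differences had rho -0.54 (Ikaros) and 0.49 (CHD4). Within 3 kb, the Ikaros rank difference was 0.326, and rho was 0.80 for the CHD4 share, -0.78 for the Ikaros and 0.88 for the H3K27ac share difference and 0.049 for the H3K27ac rank difference; within 500 bp the Ikaros share difference had rho -0.68. With the summit or centre in the window rho was 0.71 for the CHD4 share, -0.88 for the Ikaros and 0.83 for the H3K27ac share difference. For genes with H3K27ac in all 8 libraries rho was 0.83, -0.88 and, for the H3K27ac rank difference, 0.049; the H3K27ac share then has no difference to follow. With uncalled promoters ranked lowest, the rank differences were -8.19 (Ikaros) and -2.86 (CHD4), and rho was -0.68 for the Ikaros and 0.049 for the H3K27ac rank difference. In the upper quintile of H3K27ac (added after the data were seen) the rank differences were -6.15 and -2.29 and the Ikaros share difference had rho -0.78. The CHD4 rank difference was -2.32 with folds of at least 3 (where the CHD4 share difference had rho 0.29) and -0.415 for canonical genes, and ranked among all peaks its rho was 0.049.

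Leaving out 1 library kept 80 of the values, weakened 17 and turned 7. The ranges were -17.2 to -15.7 points for the Ikaros and -6.35 to -4.78 for the CHD4 share difference, and -2.46 to -0.319, -3.51 to 2.34 and 33.5 to 34.0 for the Ikaros, CHD4 and H3K27ac rank differences. For rho they were 0.64 to 0.77 and 0.76 to 0.97 for the Ikaros and CHD4 shares in RP genes, -0.97 to -0.83, -0.55 to 0.17 and 0.83 to 0.98 for the Ikaros, CHD4 and H3K27ac share differences, and 0.50 to 0.73, -0.24 to 0.35 and -0.39 to 0.17 for the rank differences in the same order. The Ikaros share difference kept its trend call without the 0 h replicate 1, 0 h replicate 2 or 30 min replicate 2 library and lost it without any of the other 5. The CHD4 rank difference turned negative without 0 h replicate 1 (-3.51) or 30 min replicate 2 (-0.967), its rho turned without the same libraries (0.35 and 0.17), that of the CHD4 share difference without 0 h replicate 1 (0.055) or 2 h replicate 2 (0.17), and that of the H3K27ac rank difference without 0 h replicate 1 (0.17).

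The labels do not say whether same-numbered libraries belong together. Deviations of same-numbered libraries correlated at -0.0381 to 0.0493 for Ikaros, -0.110 to 0.228 for CHD4 and -0.0031 to 0.0608 for H3K27ac. Such correlations cannot decide it, since libraries of one culture need not deviate alike at single promoters. With the replicate block, differences were -16.3, -5.60 and 33.7 with adjusted p = 0.208, since the exact permutation test over 4 times cannot go below 0.125, and rho was 0.90 for the CHD4 share, -0.90 for the Ikaros and 0.90 for the H3K27ac share difference (adjusted p = 0.0648). The block changed no other call. Depth sets which weak peaks pass, and CHD4 rests on 2 to 22 RP genes a library.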
